A study of Mus musculus with 6 samples.

Results

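The Toll-like receptors and Cd14 are the innate immune sensors by which cells of the liver recognise microbial lipids, proteins and nucleic acids. They were followed here in liver RNA from 6 C57BL/6 mice, 3 labelled CSAA and 3 labelled CDAA. The 10 genes, Tlr1, Tlr2, Tlr3, Tlr4, Tlr5, Tlr7, Tlr8, Tlr9, Tlr13 and Cd14, were taken by symbol from the 21899 genes of the deposited tables. All 10 were found and all 10 had enough reads to be tested.

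CSAA was the control feed and CDAA its counterpart, in this field a choline-supplemented and a choline-deficient amino acid-defined diet. Mice entered at 6 weeks of age and were acclimatised for 1 week. Those given CDAA were moved to it through mixtures of both feeds over 1 week, and every liver was taken at week 6 after that. Both groups share the strain and carry no labelled allele. Choline-deficient feed is used in mice to bring about fatty liver and, with time, inflammation and fibrosis, and the labels give no transcript that marks the feed itself. In these libraries the leukocyte, inflammatory and collagen transcripts ran the other way and were higher under the control label. Col1a1 was at 171.7, 90.4 and 115.9 CPM in CSAA and 37.4, 16.5 and 24.95 CPM in CDAA, 4.79-fold higher in CSAA, and Col3a1 was 3.67-fold higher in CSAA. Whether the labels match the feeds was not tested. The groups are called by their labels throughout, and the direction of every difference rests on those labels.

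Libraries held between 14580676 and 17367173 reads over genes. A count of 3 reads corresponded to between 0.147 and 0.228 CPM (a gene's read count scaled to a common library total, here with TMM factors), which limits low genes by counting error only. Hepatocyte transcripts led all 6 libraries, with Alb between 49595 and 84218 CPM, so the labelled tissue was borne out by its markers. The library labelled CDAA replicate 1 stood apart through other tissues. There the 12 acinar markers of the pancreas reached a sum of 2107 CPM, while the other libraries had 14.6 CPM or less. The 10 markers of striated muscle reached 285.0 CPM in it and 1.28 CPM or less in the others. All results below rest on it as well, and the fits without it are given where a value or call moved.

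Toll-like receptors pair a ligand-binding ectodomain of leucine-rich repeats with a cytoplasmic TIR domain that recruits the adaptors MyD88 or TRIF. Some sit at the cell surface and bind lipopolysaccharide, lipopeptides or flagellin, while others sit in endosomes and bind RNA or DNA. CD14 is a co-receptor that hands lipopolysaccharide to TLR4 and its partner MD-2. In liver these receptors face bacterial products arriving through the portal vein, with Kupffer cells and other myeloid cells carrying many of them, and endothelial cells and hepatocytes a smaller set.

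Of the 10 genes, 7 were lower in the libraries labelled CDAA at an adjusted p under 0.05 (edgeR quasi-likelihood test, Benjamini-Hochberg over 12845 genes) and 0 were higher. Over all genes tested, 10.5% were called lower and 4.25% higher. Those that fell were Cd14, Tlr1, Tlr2, Tlr7, Tlr8, Tlr9 and Tlr13, with log2 fold changes from -2.87 to -1.43. Tlr3, Tlr4 and Tlr5 were not called. The median log2 fold change of the 10 was -1.91, beside 0.00 over all genes tested. In 9 of the 10 every CSAA library lay above every CDAA library, an arrangement seen in 20.5% of all genes tested. In whole liver RNA, fewer cells of a type and less RNA per cell cannot be told apart.

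**Figure D1:**
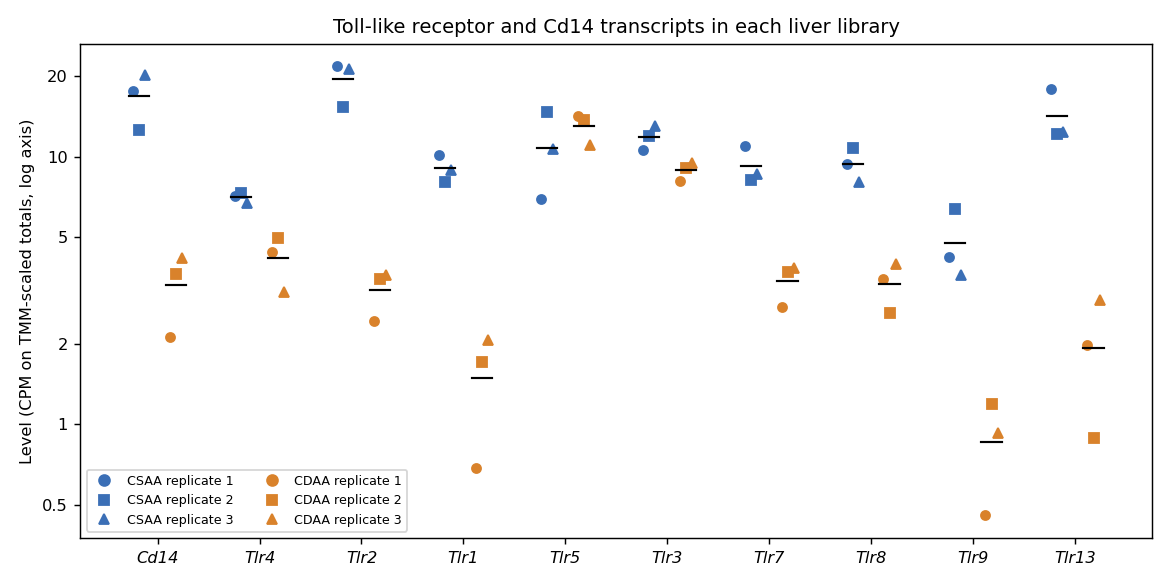
Level of each of the 10 genes in each library, in CPM on TMM-scaled totals (log axis). Points are single libraries, blue for CSAA and orange for CDAA, and black lines are group means (n = 3). The CSAA and CDAA points overlap for Tlr5 and are apart for the other 9 genes.

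Among the surface receptors for lipopeptides, Tlr2 and Tlr1 were called lower and Tlr6 was not. Tlr2, which senses bacterial lipopeptides as a dimer with TLR1 or TLR6, was at 21.8, 15.4 and 21.3 CPM in CSAA replicates 1 to 3 and at 2.43, 3.48 and 3.63 CPM in CDAA replicates 1 to 3. Its lowest CSAA library was thus well above its highest CDAA library. The log2 fold change was -2.61 ± 0.22 (SE, edgeR adjusted p = 0.00121), a level 6.10-fold higher in CSAA. Tlr1, its partner for triacylated lipopeptides, was at 10.1, 8.05 and 8.94 CPM in CSAA and at 0.683, 1.70 and 2.06 CPM in CDAA. The groups did not overlap, and the lowest value, in CDAA replicate 1, came from 9 reads. Its log2 fold change was -2.60 ± 0.35 (edgeR adjusted p = 0.00369).

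Within a library the log2 ratio of Tlr2 to Tlr1 was 1.07, 0.89 and 1.21 in CSAA and 1.31, 0.85 and 0.69 in CDAA, so both transcripts kept a similar proportion in both groups and the ratios overlapped. Tlr1 lies 18468 bp from Tlr6 on chromosome 5, on the same strand, and 14.8% of the 50-base words of its transcripts are also in those of Tlr6. How the authors' counting treated reads from that shared stretch is not given, so the levels of both genes may be affected. Tlr6, which pairs with TLR2 for diacylated lipopeptides, held only 9 to 46 reads per library and was not called (log2 -1.08 ± 0.40, edgeR adjusted p = 0.107).

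Of the transcripts for sensing lipopolysaccharide, Cd14 was called lower and Tlr4, Ly96 and Lbp were not. Cd14 was at 17.7, 12.6 and 20.2 CPM in CSAA and at 2.12, 3.63 and 4.19 CPM in CDAA, without overlap (log2 -2.34 ± 0.29, edgeR adjusted p = 0.00256). Tlr4, the signalling receptor for lipopolysaccharide, was at 7.13, 7.31 and 6.71 CPM in CSAA and at 4.40, 4.96 and 3.13 CPM in CDAA. Its groups did not overlap either, but the difference was smaller and just missed the threshold (log2 -0.76 ± 0.22, edgeR adjusted p = 0.0577). DESeq2 gave it an adjusted p of 0.0292, and scaling by library size only an edgeR adjusted p of 0.0141.

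The log2 ratio of Cd14 to Tlr4 in the same library was 1.25, 0.75 and 1.52 in CSAA and -0.90, -0.40 and 0.37 in CDAA. Cd14 reads therefore outnumbered Tlr4 reads in every CSAA library and in 1 of the 3 CDAA libraries. These ratios are not scaled for length, and the listed lengths are 1732 bases for Cd14 and 5556 for Tlr4. Per kilobase of listed length, Cd14 was at 1.226, 2.095 and 2.421 CPM in CDAA and Tlr4 at 0.792, 0.893 and 0.563. On that scale Cd14 was above Tlr4 in every library of both groups. Ly96, which encodes MD-2, was at 3.73, 2.93 and 3.98 CPM in CSAA and at 2.58, 1.26 and 1.42 CPM in CDAA, and was not called (log2 -1.01 ± 0.35, edgeR adjusted p = 0.0910). Without CDAA replicate 1, the library with pancreatic transcripts, it passed (log2 -1.39, edgeR adjusted p = 0.0473). Lbp, the plasma protein that extracts lipopolysaccharide and is made by hepatocytes, was at 68.9 to 103.4 CPM in CSAA and 63.4 to 88.5 CPM in CDAA, with overlap (log2 -0.23 ± 0.18, edgeR adjusted p = 0.436).

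Tlr5, the flagellin receptor, was the only member with a fold change above 0. It was at 6.98, 14.7 and 10.7 CPM in CSAA and at 14.2, 13.8 and 11.0 CPM in CDAA. The groups overlapped, and the CSAA libraries spread over a wider range than the CDAA libraries. Its log2 fold change was 0.27 ± 0.26 (edgeR adjusted p = 0.539), and it turned to -0.01 with library size only, so it has no direction beyond its error.

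Promoter sequence is shown for 2 of the members that fell and for Tlr5, which was not called, so that their letters can be compared. RefSeq windows on GRCm38.p6, from 250 bases before to 50 after each start site, matched 7 of the 10 genes with 8 windows. Below are the 250 upstream bases of Tlr2 (chr3:83841609-83841858, minus strand), of the more distal Tlr1 window (chr5:64933559-64933808, minus strand) and of Tlr5 (chr1:182954538-182954787, plus strand), 5′ to 3′ on the gene's strand. Capitals mark GAGGAA, an ETS core bound by the myeloid factor PU.1, or a loose NF-kB pattern, GGG and CC with any 5 bases between them, each searched on both strands.
Tlr2: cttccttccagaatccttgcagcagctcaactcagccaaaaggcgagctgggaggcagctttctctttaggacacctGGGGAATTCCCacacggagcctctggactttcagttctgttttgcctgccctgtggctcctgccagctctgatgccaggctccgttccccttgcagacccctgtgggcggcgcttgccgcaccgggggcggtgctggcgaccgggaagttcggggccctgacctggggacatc
Tlr1: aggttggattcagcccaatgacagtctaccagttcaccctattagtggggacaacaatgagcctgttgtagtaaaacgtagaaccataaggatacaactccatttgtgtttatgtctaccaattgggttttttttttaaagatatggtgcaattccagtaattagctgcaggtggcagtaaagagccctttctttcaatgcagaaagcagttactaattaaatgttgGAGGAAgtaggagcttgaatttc
Tlr5: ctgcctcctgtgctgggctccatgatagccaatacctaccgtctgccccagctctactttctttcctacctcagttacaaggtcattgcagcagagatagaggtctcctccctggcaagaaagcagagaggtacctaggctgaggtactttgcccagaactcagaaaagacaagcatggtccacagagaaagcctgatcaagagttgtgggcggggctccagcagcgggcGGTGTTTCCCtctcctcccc
Tlr2 held the NF-kB letters, in overlapping matches that begin 173 and 172 bases before the start site, and no GAGGAA. Tlr1 held GAGGAA 23 bases before the start of this window's transcript, and its other window held neither pattern. Tlr5, which was not called, held an NF-kB match 20 bases before its start.

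Among the endosomal receptors, the bacterial RNA sensor Tlr13 had the lowest fold change of the 10 genes. It was at 17.9, 12.2 and 12.4 CPM in CSAA and at 1.97, 0.889 and 2.91 CPM in CDAA. The groups were far apart, with 199 reads in the shallowest CSAA library against 41 in the highest CDAA library. Its log2 fold change was -2.87 ± 0.38 (edgeR adjusted p = 0.00323), a level 7.31-fold higher in CSAA. TLR13 recognises a stretch of bacterial ribosomal RNA in mice.

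Tlr9, the receptor for unmethylated CpG DNA, was at 4.23, 6.40 and 3.60 CPM in CSAA and at 0.455, 1.19 and 0.924 CPM in CDAA. It had the lowest CPM of the 10 in CDAA replicates 1 and 3, whereas Tlr13 was lower in CDAA replicate 2. The CDAA values came from 6, 16 and 13 reads, and the groups did not overlap (log2 -2.46 ± 0.41, edgeR adjusted p = 0.00830). Plasmacytoid dendritic cells and B cells carry much of this receptor in mice. Of 6 plasmacytoid markers 4 were tested and 3 called lower, among them Siglech (log2 -2.27 ± 0.48, edgeR adjusted p = 0.0194), while Bst2 was not called (log2 -0.21). Ly6d, also called, was at 20.7 to 52.2 CPM in CSAA, where Siglech was at 2.48 to 5.995 CPM. Pacsin1, called too, had only 5, 2 and 0 reads in CDAA. Klk1, which was not tested, was at 20.8 CPM in CDAA replicate 1, the library with pancreatic transcripts, and at most 0.869 CPM elsewhere. The plasmacytoid markers summed to 174.2 to 213.5 CPM in CSAA and 117.2 to 162.7 CPM in CDAA. Most of each sum was Bst2, at 147.5 to 151.0 CPM in CSAA and 113.2 to 157.6 CPM in CDAA. The sums therefore say little about the other plasmacytoid markers. Of 7 B cell markers only Ms4a1 was called lower, beside 10.5% of all genes tested. Summed B cell markers ranged from 10.7 to 16.4 CPM in CSAA and from 5.08 to 9.74 CPM in CDAA. No marker of either list was at 0 throughout a group. Their part in the change of Tlr9 was not tested.

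Tlr7 and Tlr8, neighbours on the X chromosome with 40600 bp between them on the same strand, had nearly the same values. Tlr7, which senses single-stranded RNA, was at 11.0, 8.16 and 8.63 CPM in CSAA and at 2.73, 3.70 and 3.84 CPM in CDAA (log2 -1.43 ± 0.22, edgeR adjusted p = 0.00645). Tlr8, its close relative, was at 9.43, 10.8 and 8.01 CPM in CSAA and at 3.49, 2.59 and 3.98 CPM in CDAA (log2 -1.48 ± 0.23, edgeR adjusted p = 0.00623). Neither overlapped between groups. The log2 ratio of Tlr7 to Tlr8 was 0.21, -0.38 and 0.10 in CSAA and -0.30, 0.44 and -0.05 in CDAA, centred near 0 in both. Their annotated transcripts had no 50-base word in common.

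Tlr3, the receptor for double-stranded RNA and the only one of the family that signals through TRIF without MyD88, was at 10.6, 11.9 and 12.98 CPM in CSAA and at 8.12, 9.11 and 9.45 CPM in CDAA. Every CSAA library was above every CDAA library, by a small margin, and the gene was not called (log2 -0.41 ± 0.16, edgeR adjusted p = 0.119). With library size only it passed (log2 -0.69, edgeR adjusted p = 0.0176), a scaling that moved the median of all genes to -0.28.

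The upstream bases of Tlr13 (chrX:106143025-106143274, plus strand), Tlr9 (chr9:106222348-106222597, plus strand) and Tlr8 (chrX:167264330-167264579, minus strand) are shown because each of these 3 genes fell and each holds the ETS letters, marked in capitals.
Tlr13: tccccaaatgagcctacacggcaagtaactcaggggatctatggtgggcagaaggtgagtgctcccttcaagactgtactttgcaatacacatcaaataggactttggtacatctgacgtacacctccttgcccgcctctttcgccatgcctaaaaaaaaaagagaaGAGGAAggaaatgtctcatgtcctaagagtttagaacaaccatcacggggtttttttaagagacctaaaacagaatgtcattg
Tlr9: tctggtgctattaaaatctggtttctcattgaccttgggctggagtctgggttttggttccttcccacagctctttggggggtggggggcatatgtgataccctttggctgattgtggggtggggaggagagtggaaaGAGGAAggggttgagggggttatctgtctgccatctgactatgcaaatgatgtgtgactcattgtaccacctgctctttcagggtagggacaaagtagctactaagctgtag
Tlr8: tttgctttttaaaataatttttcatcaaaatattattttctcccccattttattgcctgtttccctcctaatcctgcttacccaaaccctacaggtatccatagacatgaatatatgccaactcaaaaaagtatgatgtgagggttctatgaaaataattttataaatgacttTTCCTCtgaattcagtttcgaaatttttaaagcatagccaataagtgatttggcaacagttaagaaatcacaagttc
The letters GAGGAA begin 83 bases before the start of Tlr13 and 112 bases before that of Tlr9, and Tlr8 holds the reverse complement 77 bases before its start. Over the 300-base windows, 4 of the members' 8 windows held GAGGAA (1 of the pair for Tlr1, and those of Tlr8, Tlr9 and Tlr13), a pattern found in 28.3% of 32851 promoter windows. These 4 genes fell, as did 5 of the 7 genes with a window. The NF-kB pattern was in 3 of the 8 windows (Tlr2, Tlr3 and Tlr5), against 50.8% of all windows, and the interferon-stimulated response element, a pair of GAAA with any 2 bases between them, in 0 of the 8, against 3.44%. Such matches are descriptions of letters in a window and were not measured as binding.

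The other receptors of the mouse family all had fold changes below 0, and 1 of these 3 was called. Tlr12, an endosomal receptor for parasite profilin, was among the more abundant, at 22.1, 24.1 and 19.8 CPM in CSAA and 9.79, 12.0 and 5.47 CPM in CDAA (log2 -1.27 ± 0.26, edgeR adjusted p = 0.0170). It did not pass without CSAA replicate 1 or 2 (edgeR adjusted p = 0.0710 and 0.0653). Tlr11, which pairs with it, had 38, 18 and 22 reads in CSAA and 0, 11 and 12 in CDAA and was not called (log2 -1.31 ± 0.78, edgeR adjusted p = 0.301).

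**Figure D2:**
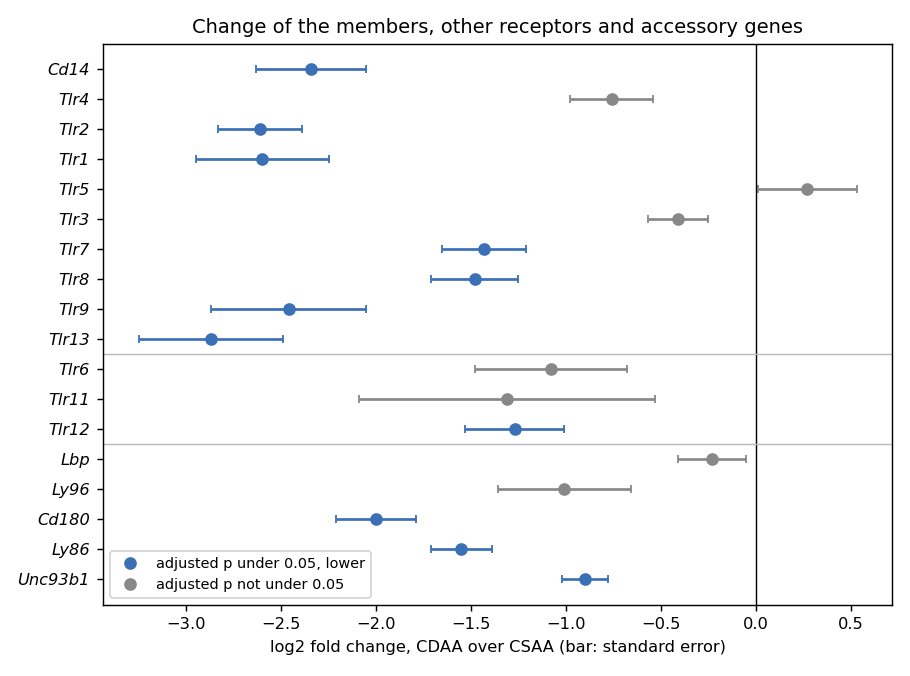
Log2 fold change, CDAA over CSAA, with its standard error, for the 10 genes, for Tlr6, Tlr11 and Tlr12, and for 5 accessory genes (n = 3 libraries a group). Blue marks an edgeR adjusted p under 0.05 and grey the rest. The members run from -2.87 for Tlr13 to 0.27 for Tlr5, the only value above 0.

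Scaled per length, the order of the levels differed between the groups. Levels here are CPM per kilobase of the listed gene length. In CSAA, Cd14 came first at 9.71 ± 2.24 (SD, n = 3), followed by Tlr2 at 6.46 ± 1.19, and each was above the next gene in all 3 libraries with no overlap of ranges. Tlr13 followed at 3.29 ± 0.752, then Tlr1, Tlr8, Tlr3, Tlr7, Tlr5, Tlr9 and Tlr4, of which the last was at 1.27 ± 0.0552. From Tlr13 down, the ranges of all neighbours overlapped.

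In CDAA, Tlr5 came first at 2.50 ± 0.332, followed by Cd14 at 1.91 ± 0.618 and Tlr3 at 1.71 ± 0.133, and the ranges of neighbours overlapped among these. Tlr3 lay above Tlr2, the fourth at 1.05 ± 0.217, in all 3 libraries and without overlap. Then came Tlr8, Tlr7, Tlr4, Tlr13, Tlr1 and Tlr9, all with ranges that overlapped those of their neighbours, down to 0.246 ± 0.106 for Tlr9. Tlr5 thus moved from the eighth place to the first, and Tlr4 from the last to the seventh, while Tlr13 went from the third to the eighth.

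As shares of the summed per-length level of the 10 genes, Cd14 and Tlr2 took 28.3 ± 4.70% and 18.9 ± 2.07% in CSAA and 17.4 ± 4.05% and 9.65 ± 1.06% in CDAA. Tlr5 took 6.25 ± 2.74% in CSAA and 23.4 ± 5.27% in CDAA, and Tlr3 6.71 ± 0.925% and 15.8 ± 0.464%. These shares are tied to each other, so a share can rise while the level does not. The summed level itself was 35.8, 30.9 and 35.4 in CSAA and 9.55, 11.2 and 11.7 in CDAA, and its mean was 3.14-fold higher in CSAA.

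**Figure D3:**
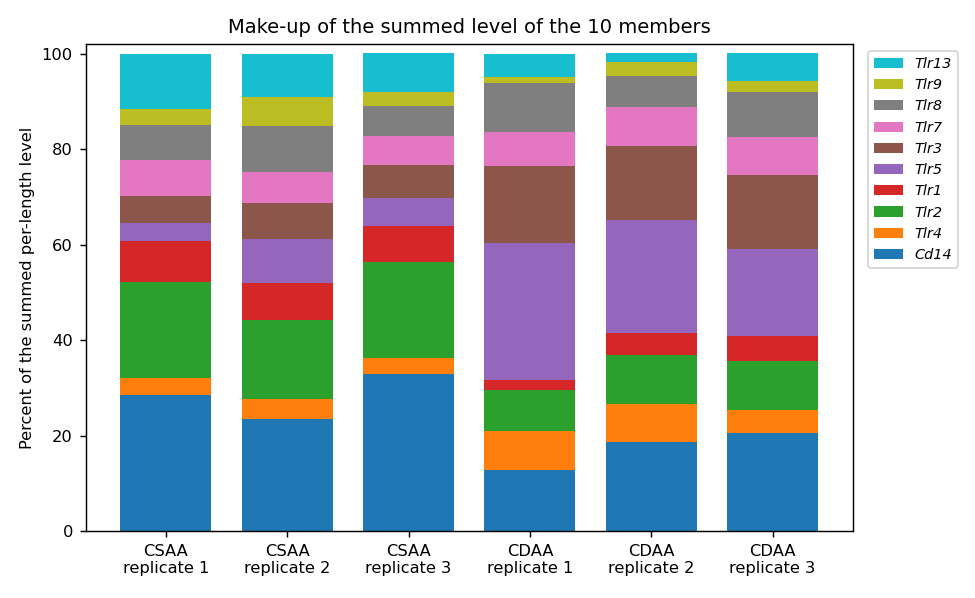
Percent of the summed per-length level (CPM per kilobase) taken by each of the 10 genes in each library. Each bar is 1 library and adds up to 100. Cd14 and Tlr2 fill the largest parts in CSAA, and Tlr5 and Tlr3 take more of each CDAA bar than of any CSAA bar.

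Leukocyte transcripts moved in the same libraries. The counts of called markers given here and below stand beside 10.5% of all genes tested called lower and 4.25% called higher. All 7 pan-leukocyte markers were lower in CDAA, with a median log2 fold change of -1.88, and their summed level was 223.1 to 306.0 CPM in CSAA and 63.0 to 83.4 CPM in CDAA. Of 10 macrophage markers 8 were lower and 0 higher, with a median of -1.34 and sums of 932.7 to 1121 CPM in CSAA and 418.2 to 456.5 CPM in CDAA. Cd163 (log2 0.53) was among the macrophage markers not called.

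Resident Kupffer cell markers were called in part, beside 10.5% of all genes tested called lower. Of 6, Marco and Cd5l were called lower and Clec4f, Vsig4, Timd4 and Folr2 were not, with sums of 510.9 to 833.5 CPM in CSAA and 275.4 to 385.7 CPM in CDAA. Clec4f, the marker most particular to these cells, was at 130.4 to 252.9 CPM in CSAA and 127.0 to 158.1 CPM in CDAA. Of 8 monocyte markers 6 were called lower, with sums of 243.0 to 555.5 CPM in CSAA and 59.9 to 72.4 CPM in CDAA. Most of each monocyte sum was Lyz2, at 204.1 to 500.3 CPM in CSAA and 48.5 to 59.1 CPM in CDAA. Of 8 neutrophil markers 3 were tested and 2 called lower, with sums of 15.1 to 32.5 CPM in CSAA and 6.45 to 7.75 CPM in CDAA and Ly6g at 0 in all libraries.

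Other lists moved as well. Of 7 T and NK cell markers tested 6 were called lower, with a median of -2.70 and sums of 23.7 to 36.3 CPM in CSAA and 5.12 to 7.04 CPM in CDAA. Of 8 conventional dendritic cell markers 5 were called lower, with a median of -1.62 and sums of 52.2 to 82.0 CPM in CSAA and 17.8 to 18.6 CPM in CDAA. Itgax, an integrin gene of dendritic cells and macrophages, had a log2 fold change of -3.70.

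Markers of cells that are not leukocytes were lower in part too. Of 8 stellate cell and fibroblast markers 5 were called lower, with a median of -0.97 and sums of 963.1 to 1231 CPM in CSAA and 403.0 to 614.0 CPM in CDAA. Of 5 cholangiocyte markers tested only Spp1 was called lower, beside 10.5% of all genes tested. The list had a median of -0.83 and sums of 56.5 to 83.1 CPM in CSAA and 30.96 to 46.8 CPM in CDAA. Most of each sum was Spp1, at 45.6 to 55.3 CPM in CSAA and 21.2 to 35.7 CPM in CDAA. Of 8 sinusoidal endothelial markers 3 were called lower, with a median of -0.34 and sums of 484.2 to 530.4 CPM in CSAA and 392.8 to 425.7 CPM in CDAA. Of 8 hepatocyte markers 1 was called higher and 0 lower, beside 4.25% and 10.5% of all genes tested, with a median of 0.45. No marker of these lists was at 0 in all libraries of a group, nor was any of the pan-leukocyte, macrophage, Kupffer or monocyte lists. What part these shifts have in the change of each receptor was not tested.

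Each receptor was then set against the macrophage markers of its own library, as log2(CPM + 0.5) of the gene minus the mean of the 10 markers. Tlr13 had a ratio of -1.80, -2.32 and -2.70 in CSAA and -3.65, -4.52 and -3.38 in CDAA, a difference of -1.58. For Tlr2 the difference was -1.35, for Tlr1 -1.25 and for Cd14 -1.11, again without overlap between groups. These 4 transcripts were thus lower in every CDAA library also relative to the macrophage markers. Tlr9 had a difference of -0.87 with overlapping groups.

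Tlr7 and Tlr8 had differences of -0.23 and -0.28 with overlapping groups. Tlr4 differed by 0.37, also with overlap. Tlr3 and Tlr5 were higher relative to the markers, by 0.70 and 1.40, with every CDAA library above every CSAA library. In an exact two-sided permutation test over the libraries, Tlr1, Tlr2, Tlr3, Tlr5, Tlr13 and Cd14 had p = 0.1, the smallest that 3 against 3 allows, and 0.167 adjusted over the 10 genes. Against the pan-leukocyte markers instead, Tlr7 and Tlr8 turned to 0.54 and 0.48, and Tlr13, Tlr2, Tlr1 and Cd14 shrank to -0.82, -0.59, -0.48 and -0.35. Tlr9 shrank to -0.10, while Tlr4, Tlr3 and Tlr5 grew to 1.14, 1.46 and 2.16.

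**Figure D4:**
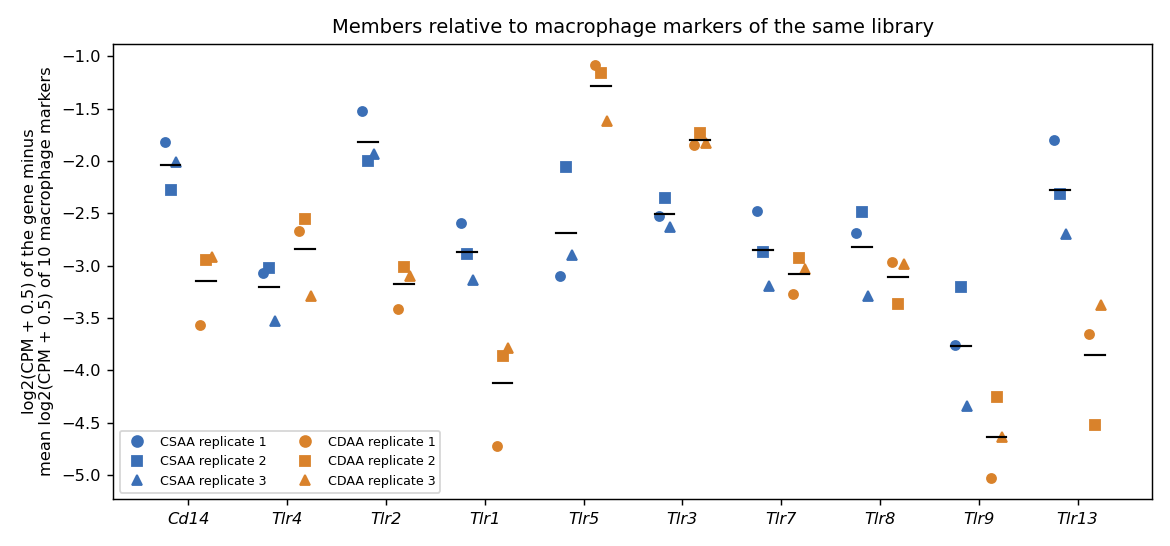
Each gene relative to the macrophage markers of the same library, as log2(CPM + 0.5) minus the mean log2(CPM + 0.5) of 10 markers. Points are libraries, blue for CSAA and orange for CDAA, and black lines are group means (n = 3). Cd14, Tlr1, Tlr2 and Tlr13 are lower in CDAA without overlap, Tlr3 and Tlr5 higher without overlap, and Tlr4, Tlr7, Tlr8 and Tlr9 overlap.

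Proteins that carry, fold or feed the receptors were lower in part. Of 13 genes 8 were called lower and 0 higher, beside 10.5% and 4.25% of all genes tested. Their median log2 fold change was -1.13. Cd180, which encodes a receptor-like relative of TLR4 on myeloid and B cells, was at 12.6 to 17.3 CPM in CSAA and 3.19 to 4.17 CPM in CDAA (4.004-fold higher in CSAA, edgeR adjusted p = 0.00155). Ly86, which encodes its partner MD-1, fell by 1.55 on the log2 scale. The lysosomal histidine and peptide transporter Slc15a3 fell by 1.75 and Pld4, a lysosomal nuclease that trims ligands of TLR9, by 1.42. Unc93b1, the chaperone that brings the nucleic acid receptors to endosomes, was at 89.1, 83.6 and 90.8 CPM in CSAA and 43.9, 42.3 and 55.3 CPM in CDAA. Its fall (log2 -0.90 ± 0.12, edgeR adjusted p = 0.00376) was smaller than those of Tlr7, Tlr8, Tlr9 and Tlr13, which depend on it, and larger than that of Tlr3, which does so too, although differences between genes were not tested.

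Downstream of the receptors most signalling genes were not called. Of 25 adaptors, kinases and transcription factors 4 were called lower and 1 higher, beside 10.5% and 4.25% of all genes tested. The median log2 fold change of the list was -0.08. Myd88, the adaptor of every receptor of the family except TLR3, was at 17.1, 11.8 and 17.0 CPM in CSAA and 12.2, 9.19 and 14.8 CPM in CDAA (log2 -0.34 ± 0.22, edgeR adjusted p = 0.336). Ticam1, which encodes TRIF, was not called either (log2 0.25 ± 0.16, edgeR adjusted p = 0.329), and turned to -0.03 with library size only. The 4 that fell included Irf8, a transcription factor of myeloid and dendritic cells, which went from 31.4 to 41.1 CPM in CSAA to 8.74 to 11.8 CPM in CDAA (log2 -1.83 ± 0.16, edgeR adjusted p = 0.00121).

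The other 3 were the kinase Ikbke (log2 -1.14 ± 0.10), Irf5, which acts below MyD88 (log2 -0.93 ± 0.24), and Irf7, which drives interferon genes (log2 -0.56 ± 0.11). The kinase gene Chuk was the 1 called higher (log2 0.40 ± 0.09, edgeR adjusted p = 0.0282). When single libraries were left out, Irf5 was no longer called in 4 of the 6 fits (CSAA 1 and 3, CDAA 2 and 3) and Irf7 in 4 (each CSAA library and CDAA 2). Chuk was lost in 5 of the 6, all except CDAA 3, and also with library size only and with the replicate block (edgeR adjusted p = 0.412 and 0.0724).

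Of the genes that damp the pathway, 8 of 15 tested were called lower and 0 higher, with a median of -1.07. Over all genes tested these shares were 10.5% and 4.25%. Tnfaip3, which encodes the ubiquitin-editing enzyme A20 and is itself a target of NF-kB, was at 28.8, 23.9 and 24.3 CPM in CSAA and 4.63, 3.04 and 3.34 CPM in CDAA (log2 -2.81 ± 0.19, edgeR adjusted p = 0.00121). Irak3, the kinase-dead brake of myeloid cells, fell by 2.24 ± 0.34 and the lipid receptor gene Trem2 by 4.26 ± 0.43 on the log2 scale. Tnip1 and Inpp5d fell by 1.22 and 1.59.

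Inflammatory target genes had the lowest median of the pathway lists, -3.32, with 19 of 21 tested called lower and 0 higher. Over all genes tested these shares were 10.5% and 4.25%. Il1rn, the interleukin-1 receptor antagonist, was at 29.3, 19.7 and 29.2 CPM in CSAA and 1.29, 2.52 and 2.63 CPM in CDAA (log2 -3.59 ± 0.28, edgeR adjusted p = 0.00121). The chemokine genes Ccl5, Ccl2 and Cxcl10 had log2 fold changes of -3.92, -3.32 and -2.26. The interleukin genes Il1a (log2 -0.52) and Il1b (log2 -0.58) were the tested targets not called, named after their values were seen.

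Of the interferon genes, 2 of 9 tested were called lower and 0 higher, beside 10.5% and 4.25% of all genes tested. Their median was -0.28. Ifit2 was at 15.1 to 19.2 CPM in CSAA and 6.97 to 8.57 CPM in CDAA (log2 -1.18 ± 0.16, edgeR adjusted p = 0.00378). No reads of Ifnb1, the interferon beta gene, were counted in any library, which allows up to 0.228 CPM in CDAA replicate 1, the shallowest.

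Of the other innate sensors, 6 of 12 tested were called lower and 0 higher, beside 10.5% and 4.25% of all genes tested. Their median was -1.12. The inflammasome sensor Nlrp3 had a log2 fold change of -1.50 ± 0.27, the DNA-sensing adaptor Sting1 one of -1.34 ± 0.26, the peptidoglycan sensor Nod1 one of -0.90 ± 0.18 and the flagellin sensor Naip5 one of -1.04 ± 0.22. Without CSAA replicate 1, 0 of the list were called lower. Nod1 was also lost without CSAA replicate 3 or CDAA replicate 2, Naip5 without CSAA replicate 2 or CDAA replicate 2, and Sting1 without CSAA replicate 3.

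**Figure D5:**
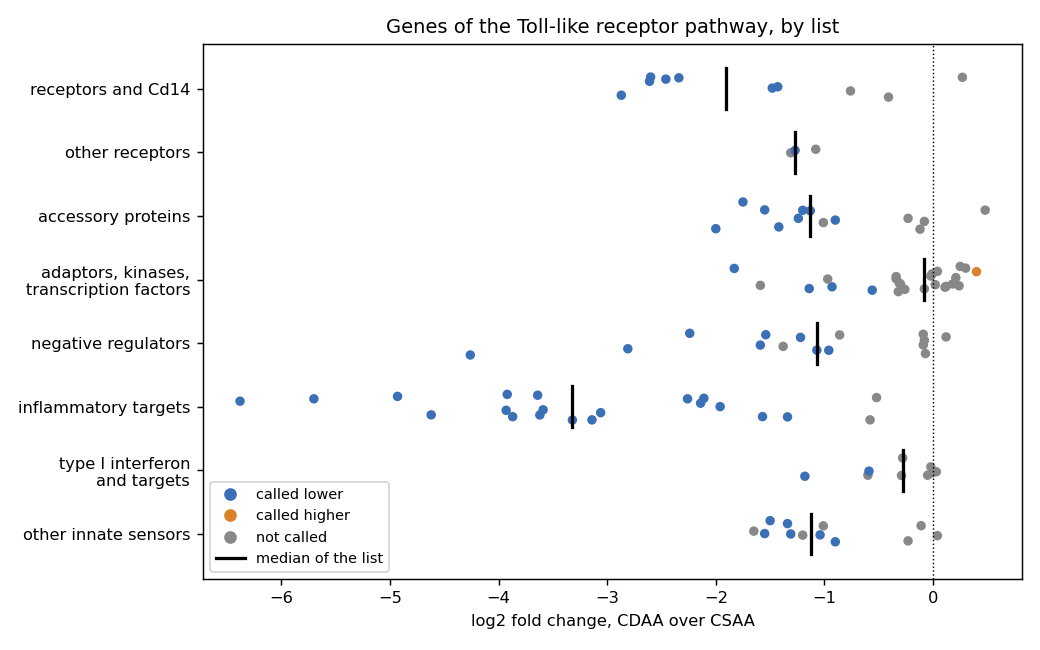
Log2 fold change, CDAA over CSAA, of each tested gene of 8 lists around the Toll-like receptors. Points are genes, blue called lower, orange called higher and grey not called, black bars are list medians, and the vertical scatter has no meaning. The inflammatory targets reach furthest down, with a median of -3.32, and the adaptors, kinases and transcription factors lie around 0, with a median of -0.08.

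The 5 genes whose log2 CPM over the 6 libraries was most like the mean standardised level of the 10 members were Tbxas1 (Pearson r = 0.9990), Lamp1 (0.9960), Gbp9 (0.9958), Cfl1 (0.9953) and Slamf6 (0.9947). Such values describe 6 libraries that fall into 2 groups, and they mostly follow that division. Tbxas1, thromboxane synthase, had a log2 fold change of -1.30 and Lamp1, a lysosomal membrane protein, one of -0.25.

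Tlr1 (ENSMUSG00000044827) is listed on chromosome 5 from 65082022 to 65090906, minus strand, and Tlr3 (ENSMUSG00000031639) on chromosome 8 from 45848702 to 45864117, minus strand. Tlr4 (ENSMUSG00000039005) is on chromosome 4 from 66745821 to 66848521, plus strand, and Tlr9 (ENSMUSG00000045322) on chromosome 9 from 106099797 to 106104082, plus strand. Tlr7 (ENSMUSG00000044583) and Tlr8 (ENSMUSG00000040522) are on chromosome X, minus strand, from 166087925 to 166113554 and from 166025692 to 166047325. In the same coordinates, whose build the headers do not name, Tlr2 (ENSMUSG00000027995) lies on chromosome 3 from 83743579 to 83749074, minus strand, and Tlr13 (ENSMUSG00000033777) on chromosome X from 105186810 to 105204099, plus strand. Tlr5 (ENSMUSG00000079164) lies on chromosome 1 from 182782353 to 182804010, plus strand, and Cd14 (ENSMUSG00000051439) on chromosome 18 from 36858120 to 36859851, minus strand. These listed positions do not match the GRCm38.p6 positions of the promoter windows and cannot be set beside them. The Tlr5 window, for example, starts at 182954538, beyond the listed end of the gene. No other listed gene overlapped any of the 10 genes, whichever strand setting the authors' counting used.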

How the data were processed

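RNA of 6 livers was analysed, 3 per feed, from 3 ug of RNA per library, with groups taken from the treatment labels and replicate numbers from the titles. Whole-number read counts per gene, not normalised by the authors, and FPKM are given per the file headers. FPKM equalled the deposited counts scaled by listed length and library total for all 21899 genes in each library, within a relative tolerance of 0.001, and was not used further. HISAT2 2.0.5, cutadapt 1.15, DESeq 1.30.0 and HTSeq 0.9.1 are named per the submitters' processing notes. What each did, and whether strand was used, is not given in the sources used here.

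The deposited counts went into edgeR 4.0.16 under R 4.3.3 (filterByExpr, TMM factors between 0.883 and 1.172, glmQLFit, glmQLFTest), without covariates. P-values were adjusted over 12845 genes by the Benjamini-Hochberg method, with a threshold of 0.05. The standard error is the fold change over the square root of F. The function was tested on simulated data. Levels are CPM on TMM-scaled totals, and per-length levels divide these by the listed length. P-values measure the spread between livers, which the design text gives as separate mice.

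The 10 genes, 8 pathway lists and 15 marker lists were chosen with earlier results of these data known. Of 240 list entries 5 were not matched and are not analysed here. Values of some named list genes are not reported here. Genes named are the members, the other receptors, up to 4 called genes per list and direction by adjusted p, 8 genes chosen whatever their result and the 5 nearest in pattern. Other names were chosen after values were seen, among them all cell markers. Alternatives were RLE, upper-quartile and library-size scaling, no filter, a filter of 1 CPM in 3 libraries, DESeq2 1.42.0, the replicate number as a block, leaving out each library, other denominators and pseudocounts of the marker ratio, and the upstream part of the promoter window.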

Additional observations from a re-analysis of the deposited data

How the results depend on the processing

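All 7 members called lower stayed called in each of 13 alternatives, and 0 members were called higher in any. Log2 fold changes ranged from -3.30 to -2.52 for Tlr13, -2.91 to -2.26 for Tlr1, -2.89 to -2.45 for Tlr2, -2.76 to -2.16 for Tlr9, -2.61 to -2.10 for Cd14, -1.77 to -1.33 for Tlr8 and -1.72 to -1.27 for Tlr7. The highest edgeR adjusted p among these was 0.0364, for Tlr9 without CSAA replicate 2. Tlr5 turned to -0.01 and Ticam1 to -0.03 with library size only, and the marker ratios of Tlr7 and Tlr8 turned to 0.54 and 0.48 with pan-leukocyte markers.

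Counts over all genes moved more than those of the members. With library size only 2745 genes were lower and 137 higher, a split of 95.2% and 4.75% against 71.3% and 28.7% with TMM. DESeq2 called 1117 higher. Leaving out single libraries gave 568 to 1456 lower and 76 to 688 higher genes, against 1355 and 546. With library size only the signalling list had 10 lower and 0 higher, the other innate sensors 10 lower and the other receptors 2 lower. Leaving out single libraries gave 2 to 4 lower and 0 to 1 higher signalling genes, 0 to 6 lower other sensors, 0 to 1 lower other receptors and 1 to 3 lower interferon genes. The cause was not tested.

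Replicate numbers are shared by the groups. Deviations of same-numbered libraries from their group means had r = 0.045, 0.139 and -0.089 for numbers 1 to 3. Libraries with unlike numbers had r from -0.199 to 0.105. Deviations within 3 libraries are tied to each other, so these values cannot show whether same-numbered libraries share more than a number. With the replicate block 293 genes were called higher, 0 signalling genes higher and 1 interferon gene lower, and the members' calls did not change. Low genes such as Tlr9, Tlr6 and Tlr11, with under 20 reads in some libraries, are the least precise.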
